A study of Homo sapiens with 12 samples.

Results

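Expression of 9 genes of the stress response controlled by the transcription factor ATF4 was followed in A549 cells, an established human lung carcinoma line. They were ATF4 itself, ATF3, DDIT3 (which encodes CHOP), PPP1R15A, TRIB3, SESN2, DDIT4, CHAC1 and VLDLR, chosen as the rows of the deposited table that carry these names, 9 of 58676 genes. The cells were a control line (Control1) and a pair of lines with a knockout of NFE2L1 (NFE2L1 KO1 and NFE2L1 KO2, below KO1 and KO2). Each line received the vehicle DMSO or 200 nM bortezomib, a proteasome inhibitor, for 4 h, and each of the 6 groups had 2 libraries. The labels do not say how the knockouts were made or whether a line is 1 clone. They do not say that the libraries of a group came from separate cultures either, so p-values measure only the spread between these libraries, which may be technical.

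Phosphorylation of the translation factor eIF2 alpha by stress-activated kinases lowers general protein synthesis while ribosomes are passed on to the ATF4 coding sequence, so ATF4 is known to be controlled to a large extent at translation. ATF4 pairs with other basic leucine zipper proteins, C/EBP members among them, and acts on genes of amino acid supply, redox defence and stress signalling. ATF3 and CHOP are transcription factors made downstream of it, and PPP1R15A closes a feedback loop by bringing a phosphatase to eIF2 alpha. Inhibition of the proteasome is known to engage this pathway, and NFE2L1 is a transcription factor known for raising the genes of proteasome subunits in answer to such inhibition.

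The libraries held 13211608 to 23819258 reads assigned to genes. NFE2L1 was at 72.7 to 189 FPKM (fragments per kilobase, relative to the reads assigned to genes) in the 4 control libraries and at 8.45 to 50.8 FPKM in the 8 KO libraries, with no overlap. The epithelial markers KRT8, KRT18 and KRT7 were at 112 FPKM or above in every library, AKR1B10 was at 545 or above, AKR1C1 at 6.23 to 54.3 and EPCAM at 1.25 to 10.6. Markers of alveolar type II cells (SFTPC, SFTPB), leukocytes (PTPRC, CD3E), endothelium (PECAM1, VWF) and liver (ALB) were at 0.13 FPKM or below. Of the 3 fibroblast markers, COL1A2 and PDGFRB were at 0.408 FPKM or below, while COL1A1 was at 1.42 to 5.18 FPKM in vehicle and 6.1 to 23.3 with bortezomib (summed list, 1.57 to 5.58 and 6.17 to 23.7). Whether any fibroblasts were present, or had a part in the results, was not tested. Replicate libraries stood apart: the mitochondrial share of reads was 12.31% to 19.29% where the title ends in R2 (6 libraries) and 5.44% to 6.8% in their partners, which carry R1 in the KO lines and no number in the control line.

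The promoters of all 9 genes were found in RefSeq (GRCh38.p14), with 14 start sites in all. They were searched on both strands, from 250 bases before to 50 bases after each start, for the core of the ATF4-C/EBP composite element (TGATGNAA, or TTNCATCA on the opposite strand) and for the cyclic AMP response element TGACGTCA, which reads the same on both strands and can be bound by ATF proteins. The composite core was present at 2 of the 14 starts, in ATF3 and CHAC1, and in 3.62% of all 35116 promoters. The cyclic AMP response element was present at 1 of the 14, in PPP1R15A, and in 1.85% of all promoters. The 3 matches are shown because they lie at genes that the inhibitor raised, with the motif in capitals. A match describes letters only, and binding was not measured.
The ATF3 stretch is chr1:212565157-212565333, plus strand, before the first ATF3 exon of GENCODE 29. Its motif begins 191 bases before the upstream RefSeq start.
ATF3: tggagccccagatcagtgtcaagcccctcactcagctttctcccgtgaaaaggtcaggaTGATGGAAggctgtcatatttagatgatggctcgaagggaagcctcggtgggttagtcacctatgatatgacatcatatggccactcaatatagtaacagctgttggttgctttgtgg
The CHAC1 stretch is chr15:40953251-40953280, plus strand. Its motif is on the opposite strand and begins 209 bases before the RefSeq start, inside the first exon of longer GENCODE 29 transcripts.
CHAC1: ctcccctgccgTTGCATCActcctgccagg
The PPP1R15A stretch is chr19:48872171-48872391, plus strand, before the first exon in GENCODE 29. Its motif begins 58 bases before the RefSeq start.
PPP1R15A: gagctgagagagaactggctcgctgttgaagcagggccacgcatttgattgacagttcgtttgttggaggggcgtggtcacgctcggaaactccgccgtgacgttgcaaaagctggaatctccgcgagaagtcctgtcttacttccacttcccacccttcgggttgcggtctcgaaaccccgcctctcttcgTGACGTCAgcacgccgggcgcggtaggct

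Bortezomib raised 7 of the 9 genes when the 3 lines were averaged: SESN2, ATF3, PPP1R15A, DDIT3, TRIB3, CHAC1 and DDIT4. In each of these 7, all 6 bortezomib libraries were above all 6 vehicle libraries, a pattern found in 4.35% of the 12194 genes tested. ATF4 and VLDLR were higher with bortezomib in 6 of 6 pairs of libraries with the same line and suffix, but their ranges with and without the inhibitor overlapped. In the limma fit over all 12194 genes, 4.85% were called higher in this contrast, and the median log2 fold change was 2.57 over the 9 genes against -0.01 over all genes tested. All 9 genes passed the filter on low values (a mean of at least 1 FPKM over the 12 libraries). All log2 fold changes were computed on log2(FPKM + 1), so those of genes with low FPKM come out too small.

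**Figure D1:**
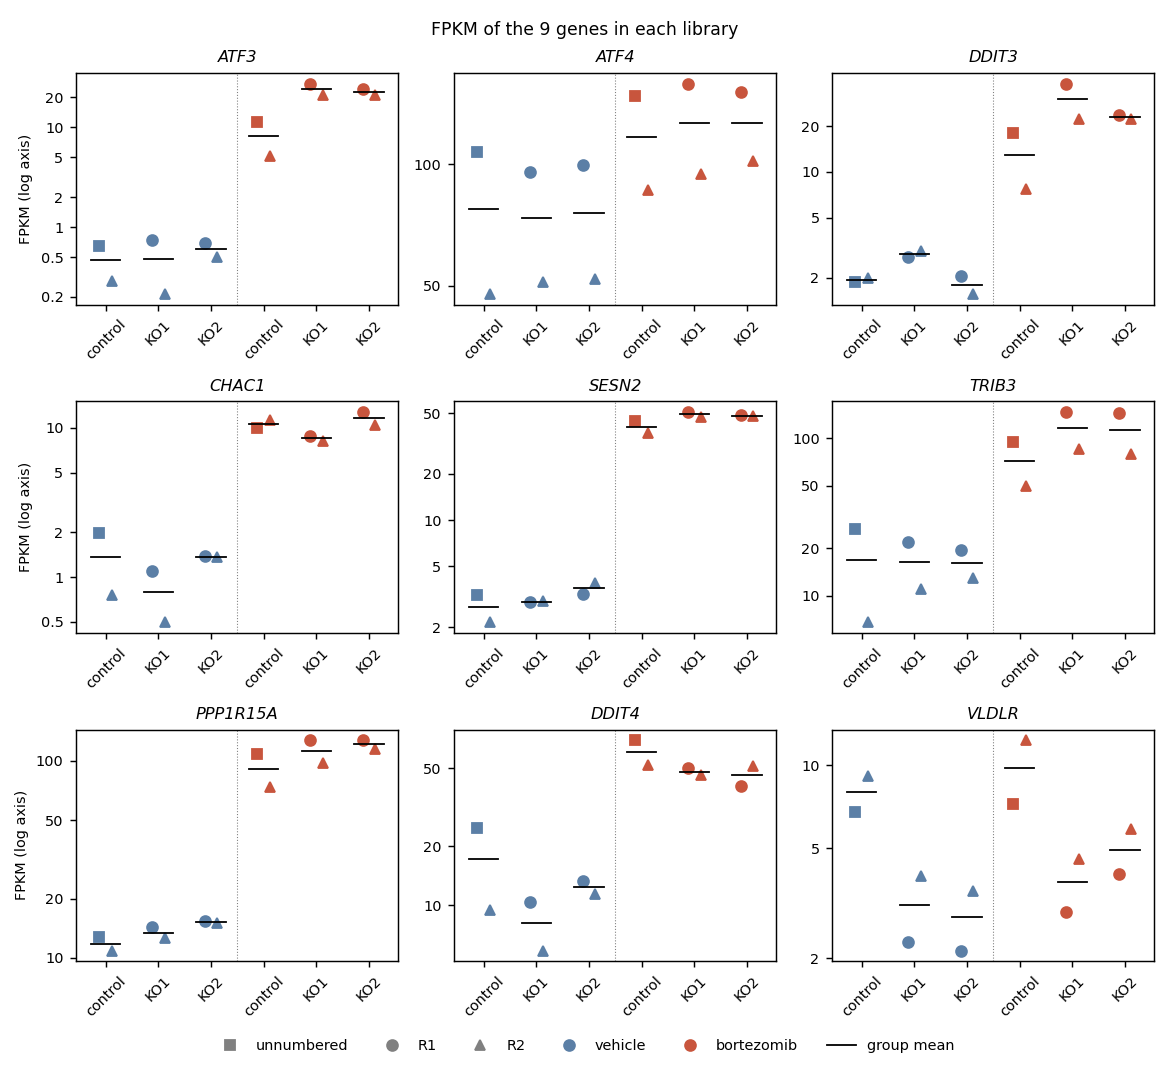
FPKM of the 9 genes in each of the 12 libraries (vertical log axes, 1 panel per gene), with the control line, KO1 and KO2 side by side under vehicle and bortezomib; each point is 1 library. In 7 panels the bortezomib points lie above every vehicle point; in the ATF4 and VLDLR panels the treatments overlap.

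ATF4 (chromosome 22, 39519695 to 39522685, plus strand) had the highest FPKM of the 9 genes without the inhibitor. In vehicle it was at 107 and 47.7 FPKM in the control line (here and below the unnumbered or R1 library first, then R2), 95.6 and 51.2 in KO1, and 99.5 and 52 in KO2. With bortezomib it was at 147 and 86.2 FPKM in the control line, 158 and 94.7 for KO1, and 151 and 102 for KO2. The R2 library was the lower one in all 6 groups, and no R2 bortezomib value exceeded the highest vehicle value. Within pairs ATF4 was 1.37 to 1.96 times higher with bortezomib, and the mean log2 fold change of 0.74 ± 0.34 (SE) did not pass the test (adjusted p = 0.206). With the replicate suffix as a block, which compares libraries of the same suffix, ATF4 rose (adjusted p = 0.000192, SE 0.09). A bulk measurement cannot tell a higher level in each cell from a larger share of responding cells, for ATF4 or for the genes below.

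ATF3 (chromosome 1, 212565334 to 212620777, plus strand) encodes a stress-inducible transcription factor, and it was the least abundant of the 9 in vehicle. It was at 0.644 and 0.291 FPKM in control vehicle libraries, 0.749 and 0.213 in KO1 and 0.701 and 0.501 in KO2, which corresponds to 16 to 62 reads. With bortezomib it reached 11.4 and 5.11 FPKM in the control line, 27.3 and 21.2 in KO1, and 24.4 and 21.1 in KO2. Both control libraries were thus below all 4 KO libraries under the inhibitor, while vehicle values of the 3 lines overlapped. The FPKM ratio within pairs was 17.7 and 17.6 for control cells, 36.4 and 99.4 for KO1, and 34.8 and 42.1 for KO2. The mean log2 fold change was 3.52 ± 0.21 (adjusted p = 3.59e-05), rank 6 of the 12194 genes.

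DDIT3 (chromosome 12, 57516588 to 57520517, minus strand) encodes CHOP, a C/EBP-family factor tied to cell death under lasting stress. Vehicle values were 1.89 and 1.99 FPKM in the control line, 2.73 and 3.02 in KO1, and 2.05 and 1.56 in KO2. Bortezomib values were 18 and 7.72 FPKM in the control line, 38.2 and 22.4 in KO1, and 23.9 and 22.2 in KO2. As with ATF3, the 2 control bortezomib libraries were the lowest of the 6. The log2 fold change was 2.73 ± 0.23 (adjusted p = 0.000256). In GENCODE 29, exons of DDIT3 overlap MARS on the opposite strand and the read-through gene AC022506.1 on the same strand, each taken from start to end. Whether they overlap exons of these genes was not tested. The GENCODE 29 position of DDIT3 differs from the deposited one (exon length of 1307 against 1266 bases). Whether counting used strand is not given in the sources used here, so the level of DDIT3 is uncertain.

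Of the feedback genes, PPP1R15A (chromosome 19, 48872392 to 48876057, plus strand) encodes GADD34, which returns eIF2 alpha to its unphosphorylated state. It was at 12.7 and 10.9 FPKM in vehicle in the control line, 14.3 and 12.6 in KO1, and 15.4 and 15 in KO2. With bortezomib it was at 108 and 73.9 FPKM in the control line, 127 and 97.1 for KO1, and 127 and 115 for KO2. The ratio within pairs stayed between 6.77 and 8.83 in all 6 pairs. The log2 fold change was 2.90 ± 0.21 (adjusted p = 0.000107). TRIB3 (chromosome 20, 362835 to 397559, plus strand) encodes a pseudokinase that binds ATF4 and CHOP. Its vehicle values were 26.7 and 6.77 FPKM in the control line, 21.8 and 11.1 in KO1, and 19.4 and 12.9 in KO2, and its bortezomib values 94.4 and 49.6, 147 and 85.2, and 145 and 79.8. TRIB3 was lower in the R2 library of all 6 groups, by a ratio to its partner of 0.254 to 0.662. It rose by 2.57 ± 0.39 on the log2 scale (adjusted p = 0.00364).

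A pair of genes that restrain the growth kinase complex mTORC1 rose as well. SESN2 (chromosome 1, 28259527 to 28282491, plus strand), which encodes the leucine-binding protein sestrin 2, was at 3.23 and 2.15 FPKM in control vehicle, 2.9 and 2.96 in KO1 and 3.31 and 3.91 in KO2. With bortezomib it was at 44.2 and 37.2 FPKM in the control line, 50.8 and 47.2 in KO1, and 48.3 and 47.8 in KO2. SESN2 had the lowest adjusted p of the 9 genes (8.15e-06), with a log2 fold change of 3.53 ± 0.17, rank 4 of all genes tested. DDIT4 (chromosome 10, 72273920 to 72276036, plus strand) encodes REDD1. Its vehicle values were 24.8 and 9.48 FPKM in the control line, 10.4 and 5.86 in KO1, and 13.3 and 11.4 in KO2, and its bortezomib values were 69.5 and 51.9, 50.1 and 46, and 40.5 and 51.5. The unnumbered control library was the highest in both treatments. DDIT4 rose by 2.06 ± 0.27 on the log2 scale (adjusted p = 0.00214), and its exons overlap the antisense gene DDIT4-AS1.

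CHAC1 (chromosome 15, 40952962 to 40956519, plus strand) encodes an enzyme that degrades glutathione. It was at 1.96 and 0.753 FPKM in control vehicle, 1.09 and 0.497 in KO1, and 1.38 and 1.36 in KO2. With bortezomib it was at 9.95 and 11.3 FPKM in the control line, 8.86 and 8.19 for KO1, and 12.8 and 10.4 for KO2. The KO1 bortezomib libraries were the lowest of the 6 and the ranges of the control line and KO2 overlapped. CHAC1 rose by 2.39 ± 0.18 on the log2 scale (adjusted p = 0.000107). VLDLR (chromosome 9, 2621834 to 2660053, plus strand), a lipoprotein receptor, was the only one of the 9 ordered mainly by line. It was at 6.75 and 9.16 FPKM in control vehicle, 2.28 and 3.95 in KO1, and 2.13 and 3.5 in KO2, and with bortezomib at 7.23 and 12.3, 2.94 and 4.58, and 4.03 and 5.85. The R2 library was the higher one in all 6 groups, opposite to ATF4, ATF3, TRIB3 and PPP1R15A, which were lower in R2 in all 6. The mean response of VLDLR was 0.37 ± 0.21 (adjusted p = 0.312 without the block and 0.00298 with it), and its exons overlap the antisense gene VLDLR-AS1.

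By line, 4 of the 9 genes were called higher in the control line (ATF3, CHAC1, PPP1R15A and SESN2), where 0.23% of all genes were. In KO1 it was 5 (the same 4 and DDIT3), against 0.156% of all genes, and in KO2 the same 5, against 0.172%. Their adjusted p-values reached from 0.000993 (SESN2, KO1) to 0.0229 (ATF3, control line). ATF3 responded with 2.58 ± 0.36 in control cells, against 4.10 ± 0.36 (KO1) and 3.89 ± 0.36 (KO2). TRIB3 and DDIT4 were not called in any single line, with log2 fold changes of 2.24 to 2.76 and 1.81 to 2.47. With the replicate block, the count was 8 of 9 in the control line (all but VLDLR), 8 in KO1 (all but VLDLR) and 9 in KO2, while the share of all genes called higher was 16.1%, 13.9% and 12.7%. In the mean of the 3 lines, the block gave 9 of 9 and 27% of all genes. Leaving out any 1 library of a line's comparison left 1 or 2 of the 9 called there, SESN2 always among them, in fits that called 4 to 7 of all 12194 genes higher. In the mean of the lines 7 remained, against 309 to 505 of all genes. Rescaling FPKM to a common sum left SESN2 alone for control cells and ATF3 and SESN2 for KO1, and fitting only the KO1 groups left ATF3. Those 3 fits called 6, 9 and 3 genes higher in all.

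**Figure D2:**
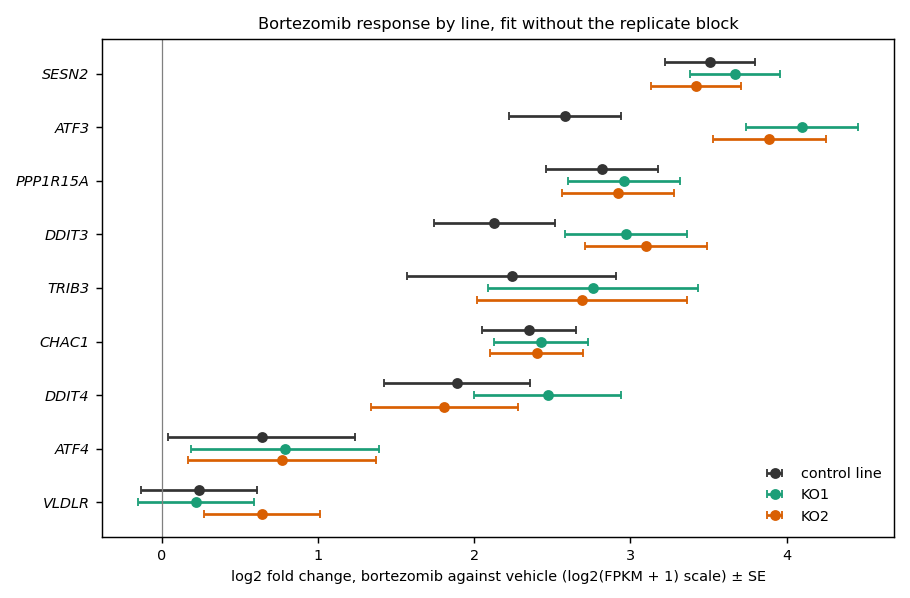
Log2 fold change of bortezomib against vehicle (horizontal axis, log2(FPKM + 1) scale) for each gene in the control line, KO1 and KO2, from the fit without the replicate block; points are estimates and bars ± 1 SE. SESN2 lies between 3.42 and 3.67 in all 3 lines, while ATF3 is at 2.58 in the control line and at 3.89 and 4.10 in the KO lines.

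The response in the KO lines was compared with that of the control line by the interaction of knockout (mean of KO1 and KO2) and bortezomib. None of the 9 genes passed, and 0% of all genes did, with or without the block. ATF3 had the largest difference, 1.42 ± 0.44 log2 units, and was the 1 gene of the 9 with an unadjusted limma p under 0.05, as against 2 with the block or quantile normalization and 0 with a pseudocount of 0.1 or voom. Its limma adjusted p was 1, and 0.0669 with the block, and the difference was 0.91 without the R2 control bortezomib library. Of all genes, 115 had an unadjusted p under 0.05 (1305 with the block), and voom on the recovered reads called 0, or 123 with the block, of which none was among the 9. For ATF3 the difference was 1.95 (KO1) and 1.64 (KO2) within R2, and 1.10 and 0.98 with R1 against the unnumbered libraries, so it was positive in all 4. DDIT3 had 0.90 ± 0.48 (0.34 without the R2 control bortezomib library), also positive in all 4 (0.31 to 1.63). The estimate was smaller than its SE for all others of the 9: SESN2 (0.03 ± 0.36), CHAC1 (0.07 ± 0.37), PPP1R15A (0.12 ± 0.44), ATF4 (0.14 ± 0.73), VLDLR (0.19 ± 0.45), DDIT4 (0.25 ± 0.58) and TRIB3 (0.48 ± 0.82). For each of these others, the sign changed when certain single libraries were left out. For KO1 against KO2, the response differed in 0 of the 9 genes and in 0% of all genes, 0 of the 9 had an unadjusted limma p under 0.05 (1 with the block), and the largest difference was that of DDIT4 (0.66 ± 0.67).

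Under bortezomib, ATF3, DDIT3 and SESN2 were higher in all 4 KO libraries than in both control libraries, a pattern found in 7.9% of all genes. Without the block none of the 9 genes was called in KO1 against the control line (0.107% of all genes) or in KO2 (0.0656%). In each comparison 3 had an unadjusted limma p under 0.05: ATF3 and DDIT3, which were higher, and VLDLR, which was lower. Of all 12194 genes, 671 (KO1) and 477 (KO2) had such a p. The log2 difference of ATF3 was 1.53 ± 0.36 in KO1 and 1.44 ± 0.36 in KO2 (adjusted p = 0.215 and 0.437), and 1.01 and 0.93 without the R2 control library. With the block, ATF3 (adjusted p = 0.00249), DDIT3 (0.0342) and TRIB3 (0.0414) were called higher and VLDLR lower (0.00345) in KO1, where 7.54% of all genes were called. In KO2 the block called ATF3 higher (0.00453) and VLDLR lower (0.0176), against 4.81% of all genes. In that block only R2 is present in all 3 lines, so the tie between KO and control lines rests mainly on the R2 libraries.

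In vehicle, none of the 9 was called in KO1 (0.213% of all genes) or KO2 (0.23%) without the block. Of the 9, VLDLR alone had an unadjusted limma p under 0.05 in each, as did 538 (KO1) and 433 (KO2) of all genes. VLDLR was the one gene of the 9 with all 8 KO libraries below all 4 control libraries, the pattern of 0.722% of all genes. In vehicle it differed by -1.14 ± 0.37 (KO1) and -1.24 ± 0.37 (KO2) log2 units (adjusted p = 0.663 and 0.541), and under bortezomib by -1.16 ± 0.37 and -0.84 ± 0.37, the last of which was -0.49 without the R2 control library. With the block VLDLR was lower in both lines in vehicle (adjusted p = 0.00404 and 0.00252), the only one of the 9 called, where 5.95% and 4.91% of all genes were.

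**Figure D3:**
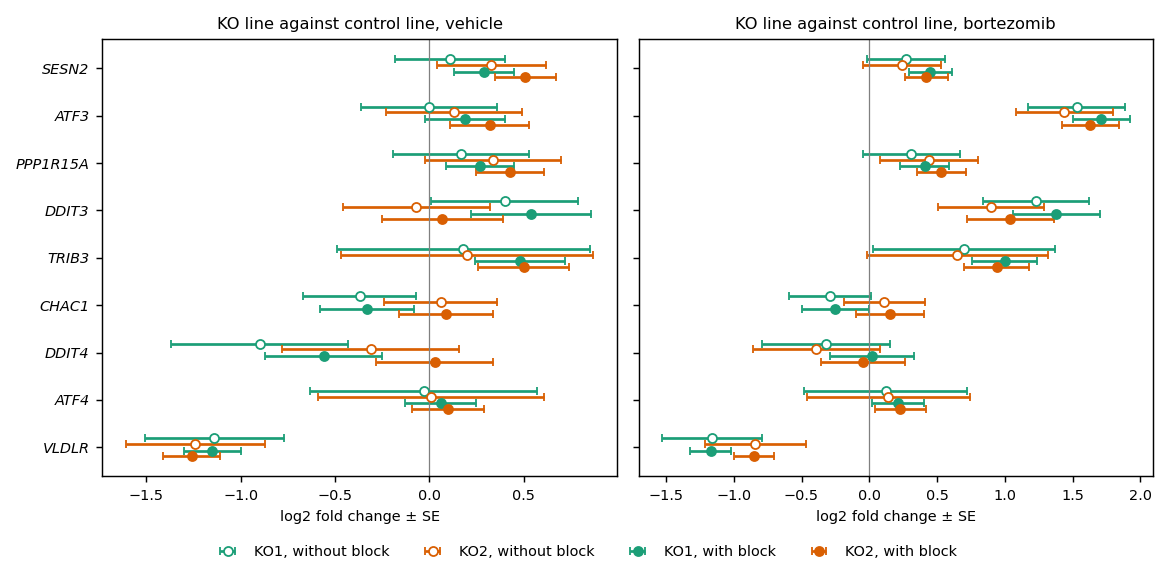
Log2 difference of KO1 and KO2 from the control line for each gene in vehicle and in bortezomib (log2(FPKM + 1) scale). Open points are from the fit without the replicate block, filled points from the fit with it, and bars are ± 1 SE. Without the block, VLDLR is below 0 in all 4 comparisons (-0.84 to -1.24), and ATF3 is near 0 in vehicle and at 1.44 to 1.53 in bortezomib. With the block, ATF3 in bortezomib is at 1.71 (KO1) and 1.63 (KO2).

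Related genes of the same families were read for comparison. Of 10 paralogs read, 7 passed the filter, and JDP2, a repressor related to ATF3, was the one called in the mean response (0.71 ± 0.19, adjusted p = 0.0373). JDP2 was at 1.08 to 3.74 FPKM in vehicle and 2.48 to 4.8 with bortezomib, against a log2 fold change of 3.52 for ATF3. SESN1, at 0.56 ± 0.17, did not pass without the block and rose with it. LRP8, a receptor related to VLDLR, was at 9.96 to 26.8 FPKM in vehicle and 4.21 to 11.6 with bortezomib, lower in 6 of 6 pairs, with a log2 fold change of -1.07 ± 0.39 (adjusted p = 0.108, and 1.44e-05 with the block). The block also called ATF5 (-0.40), CHAC2 (-0.42) and PPP1R15B (-0.28) lower, the last of which encodes the constitutive partner of the eIF2 alpha phosphatase. Of all genes, the block called 27% higher and 27.9% lower in this contrast, against 4.85% and 6.76% without it. TRIB1, at -0.08 ± 0.19, was not called in this contrast in either fit. By line it was at 3.29 to 5.75 FPKM in control libraries and 5.81 to 12.2 in KO libraries. Against the control line it was not called without the block. With the block it was called higher in KO1 in vehicle and bortezomib (5.95% and 7.54% of all genes called). In KO2 the block called it under bortezomib (4.81%) and not in vehicle (4.91%). SESN3 (0.0607 to 2.44 FPKM), DDIT4L (0.054 to 0.836) and TRIB2 (0 to 0.109) were below the filter.

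**Figure D4:**
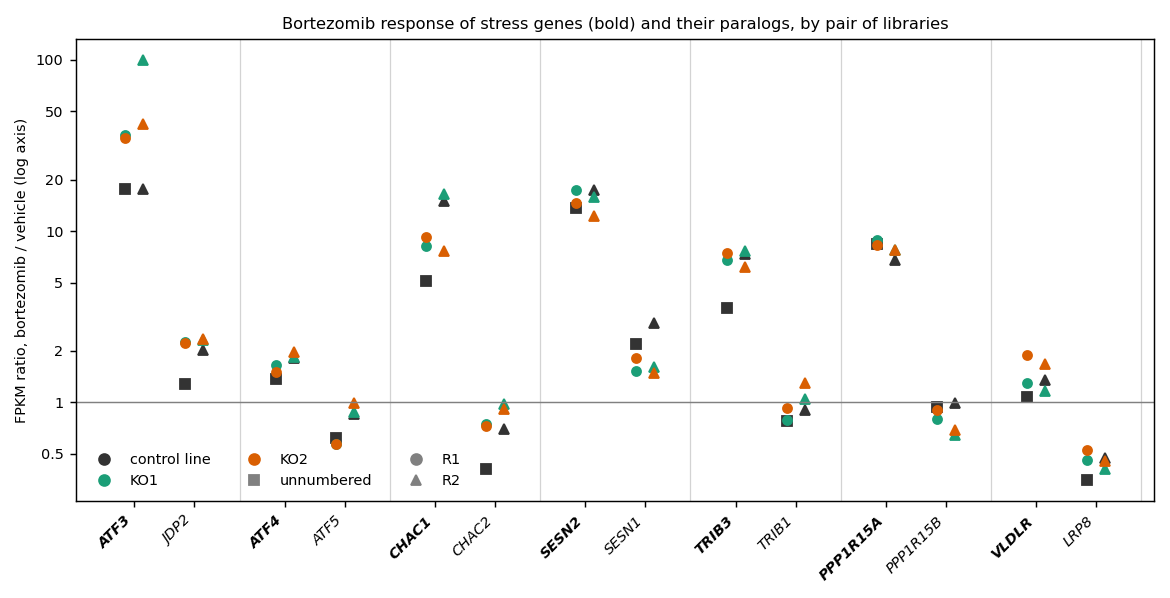
FPKM ratio of bortezomib to vehicle (vertical log axis) within each of the 6 pairs of libraries, for the stress genes with a tested paralog (bold) and those paralogs; colour gives the line and symbol the title suffix. ATF3 spans 17.6 to 99.4 and JDP2 1.28 to 2.35, and SESN2 12.2 to 17.5 and SESN1 1.49 to 2.9; DDIT3 and DDIT4 have no tested paralog listed and are not drawn.

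In the wider pathway, a list of 43 other ATF4 and CHOP targets had 41 genes over the filter. Of these, 17 rose and 0 fell in the mean of the lines (median log2 fold change 0.88, against -0.01 over all genes), where 4.85% of all genes were called higher and 6.76% lower. With the block, 35 rose and 2 fell (ALDH18A1 and ERO1A), against 27% and 27.9% of all genes. The largest rises were those of the stress cytokine GDF15 (2.62 ± 0.27, adjusted p = 0.000791), the secreted glycoprotein STC2 (2.55 ± 0.34, 0.00231), the growth arrest gene GADD45A (2.20 ± 0.38, 0.00674), the mitochondrial folate enzyme MTHFD2 (1.78 ± 0.42, 0.025) and the peptide hormone gene ADM2 (1.74 ± 0.24, 0.00233). Per line, 0 of the 41 were called higher in the control line, 1 (GDF15) in KO1 and 0 in KO2. Of all genes, those fits called 0.23%, 0.156% and 0.172% higher. With the block, 28, 34 and 31 rose, against 16.1%, 13.9% and 12.7% of all genes. MARS, which overlaps DDIT3, was among the 17. GDF15 went from 9.7 to 17.3 FPKM in vehicle to 38.4 to 166 with bortezomib. Of 13 bZIP partners tested, CEBPA, CEBPG and JDP2 rose and none fell in the mean of the lines, against 4.85% and 6.76% of all genes. With the block 9 rose and 2 fell (ATF5 and CEBPD), against 27% and 27.9% of all genes. None of the 6 genes for eIF2 alpha, its kinases and the phosphatase partner PPP1R15B was called without the block. With it, EIF2AK2 was called higher and PPP1R15B lower in the mean of the lines, where 27% of all genes were called higher and 27.9% lower.

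Over the 12 libraries, the 9 genes differed in how closely they followed their common mean. Pearson's r of log2(FPKM + 1) with the mean z-score of the 9, which includes the gene itself, was 0.939 to 0.985 for the 7 genes that rose, 0.772 for ATF4 and 0.265 for VLDLR. ATF3 and DDIT3 had r = 0.98 with each other. Among all other genes, those closest to that mean were ZFAND2A (r = 0.991), which encodes an arsenite-inducible protein that binds the proteasome, FDXR (0.99), a mitochondrial ferredoxin reductase, the heat shock gene HSPA6 (0.982), the death effector domain gene DEDD2 (0.981) and the kinase gene TESK1 (0.978). These values describe 12 libraries that share treatment and replicate differences. HSPA6 went from 0.131 to 0.406 FPKM in vehicle to 216 to 351 with bortezomib.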

How the data were processed

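Expression was measured by RNA sequencing in 12 libraries. The deposited values are FPKM for 58676 genes. Whole reads recovered from them (100% of values, tolerance 0.05) gave the depth of 13211608 to 23819258 reads, and FPKM times length in kilobases summed to 1000000 per library. Per the submitters' processing notes, CASAVA, STAR 2.5, HTSeq 0.6.1, DESeq2 and hg19 were named, with no role or order; strand settings are not given in the sources used here. The deposited coordinates matched GENCODE 29 (GRCh38) for 95.3% of IDs, not the hg19 note, and are printed as deposited; the build behind the reads is therefore uncertain.

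Groups came from the labels. Values were tested with limma 3.58.1 in R 4.3.3 (trend) on log2(FPKM + 1), all 12 libraries in 1 fit with 1 mean per group and no replicate term, over the 12194 genes (20.8%) whose FPKM averaged 1 or more. A gene was called at a Benjamini-Hochberg adjusted p under 0.05. The title suffixes pair libraries between groups: the replicate difference correlated at r = 0.696 to 0.89 in all 15 pairs of groups (median 0.811), so a fit with the suffix as a block was run as well. Alternatives were a pseudocount of 0.1, no filter, rescaling, quantile normalization, only the groups compared, voom on recovered reads, leaving out mitochondrial genes and leaving out each library. The fit was tested on simulated data. Tables were read with Python 3.11.15 and pandas 2.3.3. Promoters came from RefSeq.

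The genes named are the 9 members, 10 of their paralogs (1 further is not reported here), up to 5 called genes of the other lists, 5 genes most like the members, and genes named as a count's content. Members and lists were chosen with earlier results of these data known.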

Additional observations from a re-analysis of the deposited data

How the results depend on the processing

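In the fits with the replicate block, the count of the 9 genes called higher with bortezomib came to 8 for control cells, 8 for KO1 and 9 for KO2 (and the same with voom and the block), and 9 in the mean of the lines, against 4, 5, 5 and 7 without it. Rescaling to a common sum gave 1 in the control line and 2 in KO1, and fitting only the groups compared gave 1 in KO1. Leaving out 1 library at a time gave 1 to 2 for control cells, 2 to 2 for KO1 and 2 to 2 for KO2; the arm then has 1 library, assumed to vary like the other groups. For KO against control in vehicle, the block and voom with the block each gave 1 in KO1 and 1 in KO2, against 0. Under bortezomib each gave 4 in KO1, and in KO2 they gave 2 and 4, against 0. In that order, voom with the block called 1200, 1063, 1557 and 1108 of all 12194 genes in either direction. The block called 725, 599, 920 and 586, against 26, 28, 13 and 8 without a block. Of all genes, the block moved the count called higher with bortezomib from 28 to 1958 for control cells and from 19 to 1694 for KO1. The count moved from 21 to 1543 for KO2 and from 591 to 3290 in the mean of the lines. In the same order, voom with the block called 2265, 2000, 1864 and 3495 of all genes higher. Some log2 values changed sign when 1 library was left out: the response of VLDLR ranged from -0.11 to 0.59 for control cells and from -0.08 to 0.51 for KO1. The interaction ranged from -0.44 to 0.72 for ATF4, -0.31 to 0.44 for CHAC1, -0.18 to 0.25 for SESN2, -0.43 to 1.40 for TRIB3, -0.15 to 0.39 for PPP1R15A, -0.40 to 0.90 for DDIT4 and -0.16 to 0.54 for VLDLR. That of SESN2 was also -0.03 with a pseudocount of 0.1 or voom, -0.02 with voom and the block and -0.01 without mitochondrial genes. The cause was not tested. Leaving out mitochondrial genes moved the all-gene count called higher for control cells from 28 to 59 and added DDIT3 to the 4 genes called there. Over 56 log2 values of single genes (counts of genes not included), 422 of 486 refits with all libraries kept and 317 of 372 with 1 left out kept the direction and the side of the threshold, and 4 and 21 changed sign. ATF3 in vehicle rests on 16 to 62 reads per library, which limits its ratios.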
